A study of Danio rerio with 25 samples.

Results

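The 10 genes described here encode the Fos, Jun and ATF3 proteins that pair into the transcription factor AP-1, together with the zinc finger factor Egr1. They are the listed immediate early genes fosab, fosb, fosl1a, fosl2, jun, junba, junbb, jund, atf3 and egr1, taken from 31901 gene IDs in the files. All 10 were among the 14853 genes that passed the filter on low counts. AP-1 is a dimer of basic leucine zipper proteins: a Fos protein binds DNA only with a Jun partner, whereas Jun proteins also pair with each other and with ATF proteins. Immediate early genes are transcribed from pre-formed factors such as SRF with ELK partners and CREB, within minutes of a stimulus and without new protein synthesis. Growth factors, stretch and wounding induce them, and so do the enzymes and handling used to free cells from a tissue, which is a known source of these transcripts in sorted cells.

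The cells came from hearts of adult zebrafish that carry sox10:CreERT2 together with the reporter vmhcl:loxP-tagBFP-loxP-mCherry-NTR, and each of the 25 libraries was made with Smart-seq2 from 20 sorted cells in 1 tube. In this line a tamoxifen-dependent Cre is driven by sox10 sequences, and a reporter driven by vmhcl sequences makes blue tagBFP until Cre removes it, and red mCherry fused to nitroreductase (NTR) afterwards. CI_RFP (12 libraries) and CI_BFP (3 libraries) are the red and blue gates of hearts labelled as cryoinjured, a freezing wound of the heart. UN_RFP (6 libraries) and UN_BFP (4 libraries) are the red and blue gates of uninjured hearts. Every group carries both transgenes, and the red gate marks cells in which Cre acted at some time, not cells that express sox10 at the time of sorting. The labels give no time after injury, no time of Cre induction, and no animal, sort or day. Nothing says that the tubes came from separate animals, so the p-values measure only the spread between tubes, which may be technical. No library from undissociated tissue was analysed here, so transcription set off by dissociation cannot be told apart from the level in the heart.

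The levels are CPM, read counts scaled to library size after TMM normalisation, and are compared within a gene, not between genes, because no transcript length of the files' annotation was used. Gene IDs are matched to names, and fosab is listed as FOS (ENSDARG00000031683) and fosl1a as FOSL1 (ENSDARG00000015355). The other IDs are fosb ENSDARG00000055751, fosl2 ENSDARG00000040623, jun ENSDARG00000043531, jund ENSDARG00000067850, atf3 ENSDARG00000007823 and egr1 ENSDARG00000037421. A pair of IDs carry the name JUNB without a paralog letter, ENSDARG00000104773 and ENSDARG00000074378, and which of them is junba and which junbb is not given in the table. They are therefore printed with their IDs, and counts could be split between such close copies. The paralogs fosaa and fosl1b each had a count in 1 of 25 libraries, so nearly all counts of those pairs were on fosab and fosl1a.

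Total counts ran from 5644279 to 11981012 per library, and between 1226 and 15380 genes had at least 1 count. UN_RFP 5 (1226 genes), CI_RFP 5 (3874) and UN_RFP 1 (5008) had the fewest. Cardiomyocyte markers summed to 1899 to 261808 CPM in CI_RFP, 7466 to 15372 CPM in CI_BFP, 9976 to 137116 CPM in UN_RFP and 1592 to 16749.9 CPM in UN_BFP. Of 14 cardiomyocyte IDs 3 were at 0 in CI_BFP, 1 each of TNNT2, TNNI1 and MYH6, while the other TNNT2 and TNNI1 IDs had counts in every library of all 4 groups. An MYH6 ID was also at 0 in CI_RFP and UN_RFP, and a TNNT2 ID in UN_BFP. Leukocyte markers reached 5523 CPM in CI_RFP, 11256 CPM in CI_BFP, 4582 CPM in UN_RFP and 11045 CPM in UN_BFP, with lyz at 0 in all 4 groups. Their sums had medians of 87.1, 6431, 304 and 1310 CPM in that order. Endothelial and endocardial marker sums had medians of 146, 359, 139 and 994 CPM in the same order. Fibroblast and epicardial markers summed to 0 to 48651 CPM in CI_RFP, 1976 to 12256 CPM in CI_BFP, 0 to 3023 CPM in UN_RFP and 1208 to 7438 CPM in UN_BFP. The tubes are bulk samples, in which fewer cells of a type and less RNA per cell cannot be told apart. The ventricular myosin vmhc, listed as MYH7, exceeded the atrial myosin myh6 in 4 of 12 CI_RFP, 3 of 3 CI_BFP, 4 of 6 UN_RFP and 3 of 4 UN_BFP libraries.

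Transcripts of all 10 genes were present in cryoinjured and in uninjured hearts. Of the 10 uninjured libraries, fosab, jun, fosl2 and JUNB ENSDARG00000104773 had counts in all 10, and the member with fewest, egr1 or fosl1a, had them in 8. Median levels over the uninjured libraries were 3002 CPM for fosab, 2588 CPM for jun, 2558 CPM for JUNB ENSDARG00000104773 and 1736 CPM for JUNB ENSDARG00000074378. The other medians were 299 CPM for fosb, 168 CPM for egr1, 116 CPM for fosl2, 113 CPM for atf3, 79.2 CPM for fosl1a and 57.7 CPM for jund. The 10 genes together held 0.4997 to 2.095% of counts in CI_RFP, 0.685 to 1.55% in CI_BFP, 0.0579 to 3.33% in UN_RFP and 1.11 to 1.92% in UN_BFP. The highest and the lowest share over all 25 libraries both lay in UN_RFP, and the ranges of the 4 groups overlapped.

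**Figure D1:**
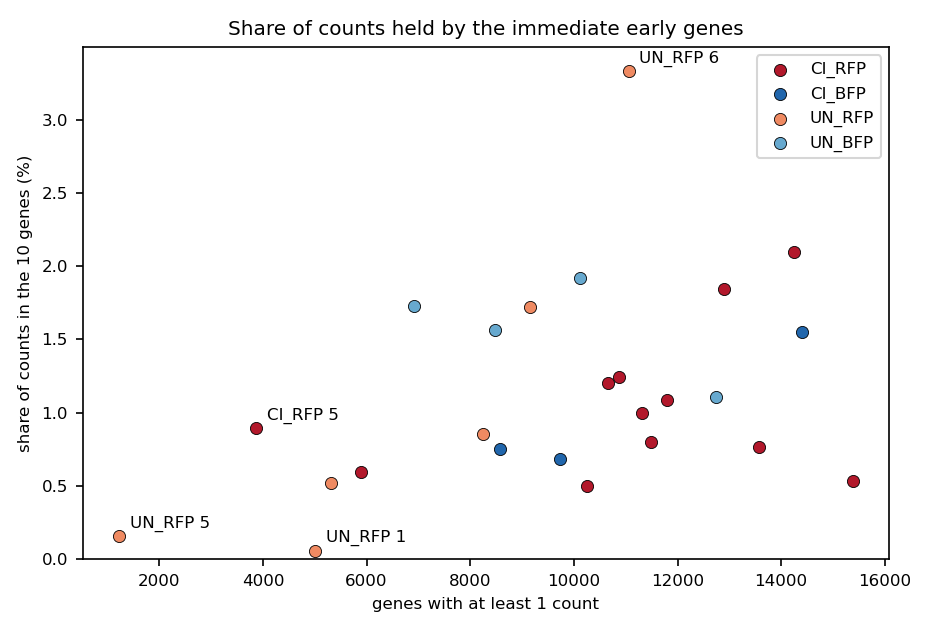
Each point is 1 library, with the genes having at least 1 count on the x axis and the percentage of its counts in the 10 genes on the y axis, coloured by group. UN_RFP 6 is highest at 3.33% and UN_RFP 1 lowest at 0.0579%, and the 4 groups overlap.

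No member passed edgeR's quasi-likelihood test at a Benjamini-Hochberg adjusted p under 0.05 in any comparison. This was so for CI_RFP against CI_BFP, where 0% of the 14853 genes tested were called, for UN_RFP against UN_BFP (0%), for CI_RFP against UN_RFP (0.0269%, or 4 genes), for CI_BFP against UN_BFP (0%) and for the interaction of gate and injury (0%). At an unadjusted edgeR p under 0.05 only atf3 in CI_RFP against UN_RFP was counted, beside 9.32%, 17.8%, 17%, 9.08% and 11.5% of all genes tested in those 5 comparisons. Limma voom and DESeq2 called 0 of the 10 members in each of the 5, beside 1.71%, 1.33%, 3.53%, 0.121% and 0.0202% of genes called by voom and 3.33%, 6.21%, 6.73%, 3.53% and 5.43% called by DESeq2. The plot of fold changes shows atf3, fosl1a and jund farthest to the right in CI_RFP against UN_RFP. In no comparison did the CPM ranges of any member separate completely. They separated for 1.83% of genes in CI_RFP against CI_BFP, 0.929% in UN_RFP against UN_BFP, 0.0673% in CI_RFP against UN_RFP and 4.85% in CI_BFP against UN_BFP.

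In direction, 7 of 10 members had a positive log2 fold change in CI_RFP against UN_RFP with a median of 0.25, beside 69.4% of all genes and a median of 0.75. Set against that shift of all genes, atf3, fosl1a and jund lay above the median gene, by 1.81, 1.13 and 0.50 on the log2 scale, and the other 7 lay below it. In CI_BFP against UN_BFP 1 of 10 was positive and the median was -0.42, beside 49.8% and 0 for all genes. Between gates, 9 of 10 were positive in CI_RFP against CI_BFP with a median of 0.86, beside 55.3% and 0.22 for all genes, and 3 of 10 in UN_RFP against UN_BFP with a median of -0.22, beside 38.8% and -0.43. Cardiomyocyte markers were positive for 13 of 13 IDs tested (median 4.06) and 11 of 13 (2.64) in these comparisons. Leukocyte markers were positive for 0 of 11 in both (medians -3.04 and -1.68). Cell make-up of the gates therefore cannot be told apart from a difference of the members within a cell type. The interaction of gate and injury was positive for all 10, but for 8 with median-of-ratios (RLE) scaling and for 7 without UN_RFP 1 and UN_RFP 5, with a median of 1.05 beside 0.81 for all genes, of which 64.4% were positive. It passed for none of the 10 by edgeR, whose lowest adjusted p was 0.749, for fosl1a. The comparisons share libraries, so these counts are not independent of each other. RLE scaling moved the median of all genes by -0.61 in CI_RFP against CI_BFP, -0.19 in UN_RFP against UN_BFP, 0.46 in CI_BFP against UN_BFP and -0.39 in the interaction, so small fold changes of either sign depend on the scaling. With it the members with a positive fold change numbered 6 in CI_RFP against CI_BFP, 1 in UN_RFP against UN_BFP, 6 in CI_RFP against UN_RFP and 5 in CI_BFP against UN_BFP. Without UN_RFP 1 and UN_RFP 5 they numbered 8 in UN_RFP against UN_BFP and 5 in CI_RFP against UN_RFP, and by limma voom 0 and 10. By voom the members' median also lay on the other side of that of all genes, at 2.30 beside 1.72 in CI_RFP against UN_RFP and -1.87 beside -1.01 in UN_RFP against UN_BFP. With library weights voom gave 1.35 beside 1.92 in CI_RFP against UN_RFP and -1.52 beside -0.85 in UN_RFP against UN_BFP.

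**Figure D2:**
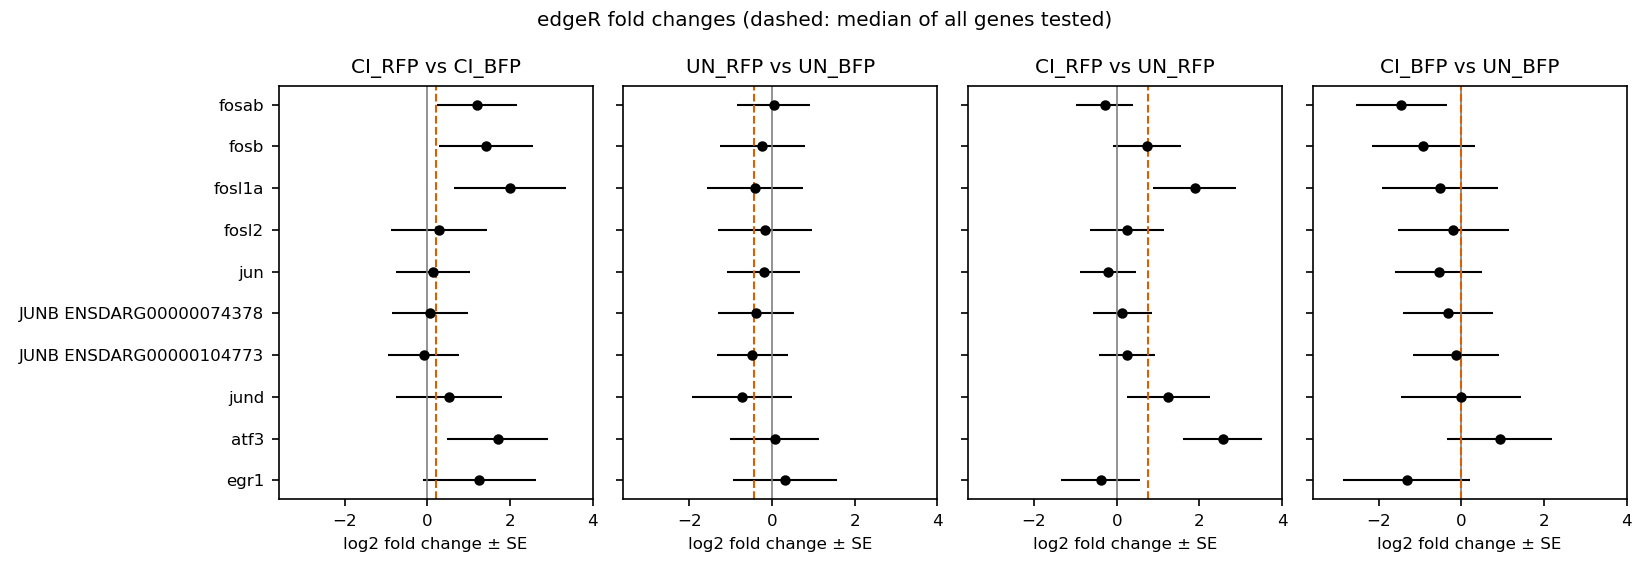
Points are the edgeR log2 fold change of each gene in 4 comparisons, with bars of 1 SE and a dashed line at the median of all 14853 genes tested. In CI_RFP against UN_RFP the bars of atf3, fosl1a and jund lie to the right of 0, as do those of fosab, fosb, fosl1a and atf3 in CI_RFP against CI_BFP. The bar of fosab lies to the left of 0 in CI_BFP against UN_BFP, none of the 10 passed the adjusted threshold, and in UN_RFP against UN_BFP all bars cross 0.

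**Figure D3:**
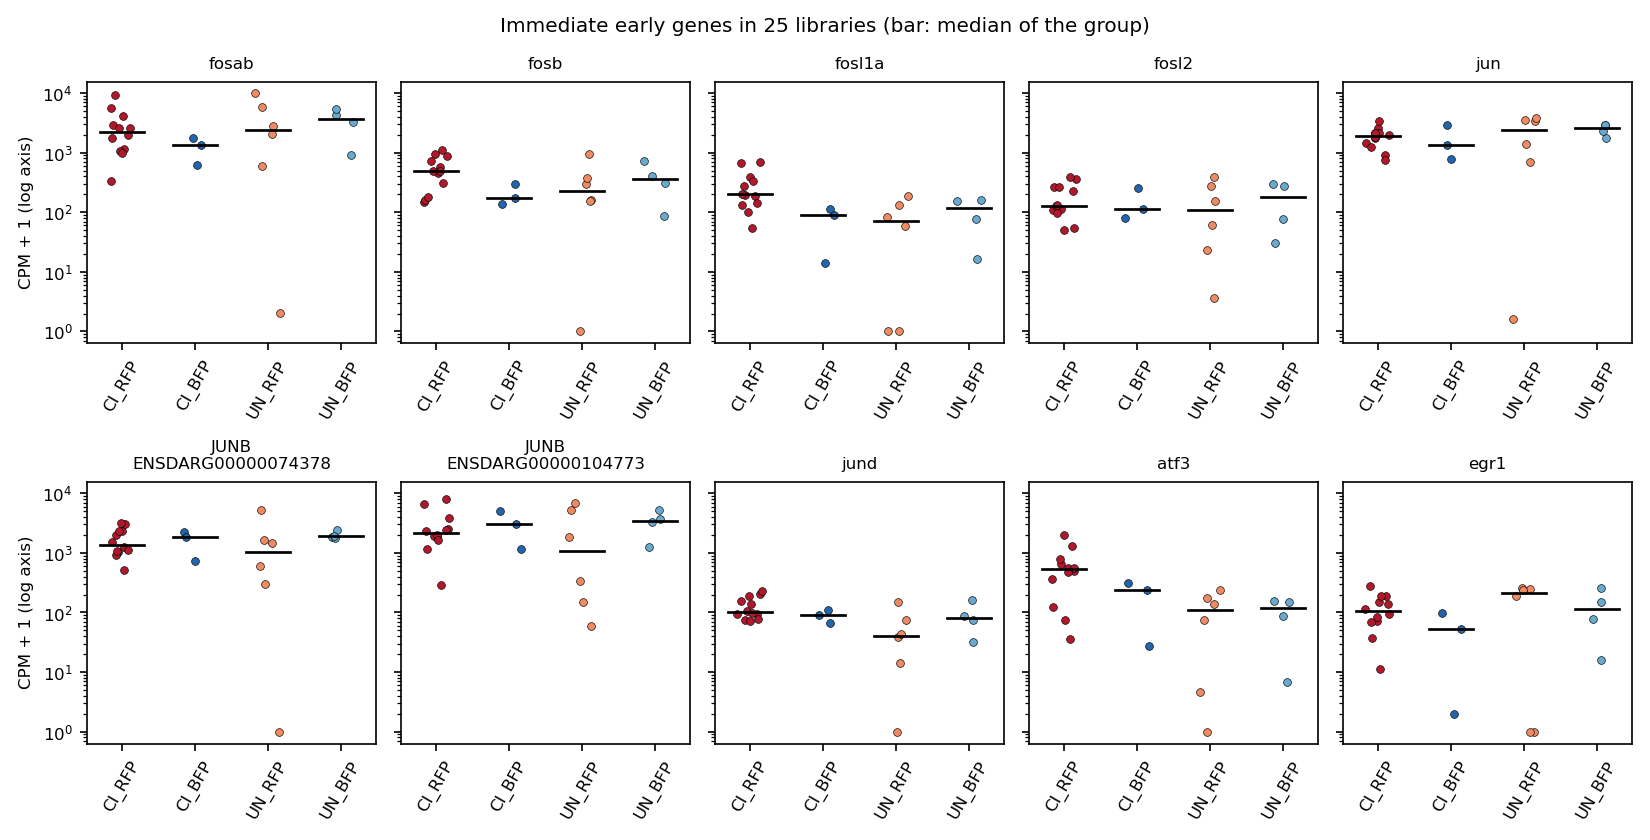
Each panel is 1 gene and each point 1 library, in CPM + 1 on a log axis by group (12 CI_RFP, 3 CI_BFP, 6 UN_RFP, 4 UN_BFP), with a bar at the group median. The groups overlap in every panel, atf3 has its highest points in CI_RFP (median 528 CPM against 107 CPM in UN_RFP), and the points near the bottom belong to UN_RFP 1, UN_RFP 5, CI_BFP 3 and UN_RFP 4.

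In the Fos family, fosab encodes c-Fos, the fastest induced of the family, which is degraded soon after it is made. Cryoinjured hearts had fosab between 330.0 and 9415 CPM in CI_RFP with a median of 2264 CPM, and at 1765, 620.2 and 1369 CPM in CI_BFP. It was between 1.08 and 9889 CPM in UN_RFP with a median of 2432 CPM, and at 3234, 4242, 5327 and 899 CPM in UN_BFP. All 3 CI_BFP libraries lay below 3 of the 4 UN_BFP libraries, a pattern for which no share of all genes was computed. Below every UN_BFP library lay 1 of 3, as at least that many did for 14.1% of all genes tested. That share includes genes without counts in some UN_BFP library, which could not meet this, so no excess can be read from it. The red groups covered each other almost entirely apart from UN_RFP 1. Means were 2874 ± 2519.6 CPM in CI_RFP, 1252 ± 582 CPM in CI_BFP, 3518 ± 3719 CPM in UN_RFP and 3426 ± 1889 CPM in UN_BFP (SD, n = 12, 3, 6 and 4). The log2 fold change of fosab was -0.29 (SE 0.684) for CI_RFP over UN_RFP, -1.45 (SE 1.101) for CI_BFP over UN_BFP, 1.199 (SE 0.973) for CI_RFP over CI_BFP and 0.04 (SE 0.893) for UN_RFP over UN_BFP, with edgeR adjusted p of 0.957 to 1.

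fosb encodes FosB, which shares the zipper of c-Fos and in mammals has a long-lived splice form. Levels of fosb were between 149.7 and 1088 CPM in CI_RFP with a median of 488 CPM, and at 294, 174 and 138 CPM in CI_BFP. They were between 0 and 963 CPM in UN_RFP with a median of 227 CPM, and at 305, 735, 86.6 and 404 CPM in UN_BFP. The CI_BFP libraries were all below the median of CI_RFP, and all 4 groups overlapped. Mean levels were 539.9 ± 320.5 CPM in CI_RFP, 202 ± 81.7 CPM in CI_BFP, 325 ± 338 CPM in UN_RFP and 383 ± 269.8 CPM in UN_BFP (SD, n = 12, 3, 6 and 4). For fosb the log2 fold change was 0.73 (SE 0.827) for CI_RFP over UN_RFP, -0.92 (SE 1.25) for CI_BFP over UN_BFP, 1.42 (SE 1.15) for CI_RFP over CI_BFP and -0.24 (SE 1.03) for UN_RFP over UN_BFP, with edgeR adjusted p of 0.867 to 1.

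fosl1a encodes Fra-1, a Fos protein without the transactivation domain of c-Fos that is itself a target of AP-1 in mammals. Counts placed fosl1a between 53.1 and 705 CPM in CI_RFP with a median of 198 CPM, and at 110.5, 13.3 and 88.2 CPM in CI_BFP. They placed it between 0 and 186 CPM in UN_RFP with a median of 69.2 CPM, and at 158, 76.8, 15.3 and 154 CPM in UN_BFP. In 8 of 15 cryoinjured libraries, all of them CI_RFP, it exceeded the highest uninjured library at 186 CPM, as at least that many libraries did for 2.35% of genes, a count chosen after the values were seen. Genes with counts in too few cryoinjured libraries could not meet this. That share is therefore of unlike genes, and no excess can be read from it. CI_RFP 3, CI_RFP 4 and CI_RFP 10 exceeded that level narrowly, at 189, 196 and 201 CPM. UN_BFP 1 had 2334 reads of fosl1a in 10143812 counts and CI_RFP 1 had 2323 in 10593170. As a share of counts before TMM scaling CI_RFP 1 lay below UN_BFP 1, so the count of 8 depends on the scaling. The means of fosl1a were 282 ± 212 CPM in CI_RFP, 70.7 ± 50.9 CPM in CI_BFP, 76.3 ± 73.9 CPM in UN_RFP and 101 ± 68.3 CPM in UN_BFP (SD, n = 12, 3, 6 and 4). The fitted log2 fold change of fosl1a was 1.88 (SE 0.998) for CI_RFP over UN_RFP, -0.52 (SE 1.40) for CI_BFP over UN_BFP, 2.00 (SE 1.36) for CI_RFP over CI_BFP and -0.40 (SE 1.16) for UN_RFP over UN_BFP, with edgeR adjusted p of 0.339 to 1. In CI_RFP against UN_RFP its adjusted p was 0.0623 by voom and 0.170 by DESeq2.

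fosl2 encodes Fra-2, the other Fos protein of that kind. It was measured between 49.0 and 386 CPM in CI_RFP with a median of 129 CPM, and at 255, 113 and 79.7 CPM in CI_BFP. Uninjured hearts had fosl2 between 2.64 and 393 CPM in UN_RFP with a median of 108 CPM, and at 276, 30.1, 76.1 and 303 CPM in UN_BFP. No group stood apart, and its group means, at 181 ± 116 CPM in CI_RFP, 149 ± 93.2 CPM in CI_BFP, 152 ± 156 CPM in UN_RFP and 171 ± 138 CPM in UN_BFP (SD, n = 12, 3, 6 and 4), differed least of the 10 genes, 1.22-fold between highest and lowest. Its log2 fold change was 0.25 (SE 0.886) for CI_RFP over UN_RFP, -0.20 (SE 1.34) for CI_BFP over UN_BFP, 0.28 (SE 1.16) for CI_RFP over CI_BFP and -0.17 (SE 1.13) for UN_RFP over UN_BFP, with edgeR adjusted p of 0.981 to 1. Over the 25 libraries fosl2 followed the fibroblast and epicardial marker sum (Spearman rho 0.66, 0.78 without UN_RFP 1 and UN_RFP 5) and the number of genes detected (0.51 and 0.79). It also followed the endothelial and endocardial sum (0.58 and 0.53), and the part of these in its level was not tested.

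In the Jun family, jun encodes c-Jun, the main partner of Fos proteins and the substrate of the JNK kinases. Levels of jun were between 739 and 3386 CPM in CI_RFP with a median of 1898 CPM, and at 2939.9, 1319.9 and 794 CPM in CI_BFP. Uninjured levels were between 0.616 and 3767 CPM in UN_RFP with a median of 2412 CPM, and at 1753, 2276, 2949.8 and 2899 CPM in UN_BFP. Within the blue gate 2 of 3 CI_BFP libraries lay below every UN_BFP library, and CI_BFP 1 lay among them, where 6.11% of all genes tested had at least 2 of 3 below. Genes without counts in some UN_BFP library could not meet this. That share therefore understates the share among genes that, like jun, had counts in every UN_BFP library. Mean jun levels were 1861 ± 729 CPM in CI_RFP, 1684 ± 1119 CPM in CI_BFP, 2142 ± 1654 CPM in UN_RFP and 2469 ± 568 CPM in UN_BFP (SD, n = 12, 3, 6 and 4). The jun log2 fold change was -0.20 (SE 0.679) for CI_RFP over UN_RFP, -0.55 (SE 1.06) for CI_BFP over UN_BFP, 0.14 (SE 0.892) for CI_RFP over CI_BFP and -0.21 (SE 0.880) for UN_RFP over UN_BFP, with edgeR adjusted p of 0.981 to 1.

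JunB is a Jun protein that in mammals activates AP-1 sites more weakly than c-Jun and can oppose it. JUNB ENSDARG00000104773 was between 291 and 7989.9 CPM in CI_RFP with a median of 2157 CPM, and at 5042, 3002 and 1154 CPM in CI_BFP. In uninjured hearts it was between 59.0 and 6830.5 CPM in UN_RFP with a median of 1076 CPM, and at 5199, 3299, 1256 and 3670.5 CPM in UN_BFP. The groups overlapped throughout, and the means of 2886 ± 2251 CPM in CI_RFP, 3066 ± 1945 CPM in CI_BFP, 2415 ± 2938 CPM in UN_RFP and 3356 ± 1624 CPM in UN_BFP (SD, n = 12, 3, 6 and 4) spanned 1.39-fold. The log2 fold change of this ID was 0.26 (SE 0.681) for CI_RFP over UN_RFP, -0.13 (SE 1.03) for CI_BFP over UN_BFP, -0.09 (SE 0.865) for CI_RFP over CI_BFP and -0.47 (SE 0.863) for UN_RFP over UN_BFP, with edgeR adjusted p of 0.960 to 1. It followed the number of genes detected (Spearman rho 0.63, 0.53 without UN_RFP 1 and UN_RFP 5) and the fibroblast and epicardial sum (0.63 and 0.61). Its rho was -0.58 and -0.57 with the cardiomyocyte sum and 0.34 and 0.53 with the endothelial and endocardial sum. The part of these in its level was not tested.

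JUNB ENSDARG00000074378 was between 516 and 3190.3 CPM in CI_RFP with a median of 1365 CPM, and at 2242, 1845 and 741 CPM in CI_BFP. It stood in uninjured hearts between 0 and 5203 CPM in UN_RFP with a median of 1022 CPM, and at 1867, 1804, 2437 and 1922 CPM in UN_BFP. UN_RFP spread most, since it held both the highest library, UN_RFP 6, and the lowest, UN_RFP 5. The 4 groups had 1690.3 ± 871 CPM in CI_RFP, 1609.5 ± 778 CPM in CI_BFP, 1536 ± 1909.8 CPM in UN_RFP and 2007 ± 290.3 CPM in UN_BFP (SD, n = 12, 3, 6 and 4), and the log2 fold change was 0.14 (SE 0.717) for CI_RFP over UN_RFP, -0.32 (SE 1.096) for CI_BFP over UN_BFP, 0.07 (SE 0.925) for CI_RFP over CI_BFP and -0.39 (SE 0.914) for UN_RFP over UN_BFP, with edgeR adjusted p of 0.982 to 1. JunD, encoded by jund, is in mammals the most constantly expressed Jun protein. In cryoinjured hearts jund was between 70.5 and 226 CPM in CI_RFP with a median of 99.7 CPM, and at 89.7, 65.7 and 107 CPM in CI_BFP. In uninjured hearts jund was between 0 and 152 CPM in UN_RFP with a median of 39.8 CPM, and at 74.9, 85.2, 30.4 and 161 CPM in UN_BFP. UN_RFP held the lowest libraries, and the ranges overlapped in all 4 comparisons of groups. Means of jund were 126 ± 54.1 CPM in CI_RFP, 87.6 ± 20.9 CPM in CI_BFP, 53.0 ± 54.6 CPM in UN_RFP and 87.9 ± 54.2 CPM in UN_BFP (SD, n = 12, 3, 6 and 4). Its log2 fold change was 1.25 (SE 1.01) for CI_RFP over UN_RFP, -0.0049 (SE 1.46) for CI_BFP over UN_BFP, 0.53 (SE 1.28) for CI_RFP over CI_BFP and -0.73 (SE 1.22) for UN_RFP over UN_BFP, with edgeR adjusted p of 0.708 to 1.

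The member nearest to the threshold by edgeR and DESeq2, though by voom it was fosl1a, was atf3, a stress-induced member of the ATF family that in mammals represses transcription as a homodimer and can activate it with a Jun partner. It stood between 34.8 and 1970.1 CPM in CI_RFP with a median of 528 CPM, and at 235, 26.6 and 306 CPM in CI_BFP. Uninjured libraries had atf3 between 0 and 237 CPM in UN_RFP with a median of 107 CPM, and at 156, 86.8, 5.78 and 149.7 CPM in UN_BFP. Most injured red libraries were high, but the groups overlapped at their low end, where CI_RFP 10 had 34.8 CPM and CI_RFP 4 had 74.1 CPM. Means were 616 ± 549.9 CPM in CI_RFP, 189 ± 145 CPM in CI_BFP, 104 ± 95.1 CPM in UN_RFP and 99.7 ± 70.0 CPM in UN_BFP (SD, n = 12, 3, 6 and 4). In a count also chosen after the values were seen, 10 of 15 cryoinjured libraries exceeded the highest of the 10 uninjured ones (237 CPM), as at least that many did for 0.599% of all genes tested. Within the red gate 9 of 12 did so, beside 2.54% of genes. The blue gate had 2 of 3 CI_BFP libraries above every UN_BFP library, beside 14.7% of genes. Genes with counts in too few cryoinjured libraries are among those tested and could not meet these counts, whereas atf3 had counts in every cryoinjured library. These shares are therefore of unlike genes, and no excess can be read from them.

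The log2 fold change of atf3 was 2.56 (SE 0.958) for CI_RFP over UN_RFP, 0.93 (SE 1.27) for CI_BFP over UN_BFP, 1.70 (SE 1.22) for CI_RFP over CI_BFP and 0.07 (SE 1.08) for UN_RFP over UN_BFP. For CI_RFP against UN_RFP edgeR gave an unadjusted p of 0.00824 and an adjusted p of 0.0939, voom an adjusted p of 0.0801 and DESeq2 one of 0.0504. Its edgeR p ranked 1303 among 14853 genes, or within the lowest 8.77%. The other edgeR adjusted p values of atf3 were 0.859 for CI_RFP against CI_BFP, 1 for both UN_RFP against UN_BFP and CI_BFP against UN_BFP, and 0.952 for the interaction. Without UN_RFP 1 and UN_RFP 5, which had 3.54 and 0 CPM of atf3 and were left out after their values were seen, the log2 fold change was 1.98 with an edgeR adjusted p of 0.278. Left out singly, no library took the adjusted p outside 0.0856 to 0.182 or the log2 fold change outside 2.24 to 2.99. The summed heat shock list moved with atf3 over the 25 libraries (Spearman rho 0.67, 0.58 without UN_RFP 1 and UN_RFP 5), as did the cardiomyocyte markers (0.43 and 0.58). The endothelial and endocardial markers moved against it (-0.50 and -0.48). The part of these lists in the result was not tested.

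egr1 encodes a zinc finger factor outside AP-1 that is induced by the same SRF and ELK route and is held back by NAB proteins. Its levels were between 10.4 and 282 CPM in CI_RFP with a median of 103 CPM, and at 50.8, 96.7 and 0.980 CPM in CI_BFP. Without injury they were between 0 and 256 CPM in UN_RFP with a median of 214 CPM, and at 150.5, 252, 76.8 and 14.9 CPM in UN_BFP. Apart from UN_RFP 1 and UN_RFP 5, which had none, the UN_RFP libraries lay within 186 to 256 CPM, and CI_BFP 3 was lowest of the blue libraries. Means of egr1 were 118 ± 75.4 CPM in CI_RFP, 49.5 ± 47.9 CPM in CI_BFP, 154 ± 122 CPM in UN_RFP and 124 ± 102 CPM in UN_BFP (SD, n = 12, 3, 6 and 4). The egr1 log2 fold change was -0.38 (SE 0.956) for CI_RFP over UN_RFP, -1.32 (SE 1.54) for CI_BFP over UN_BFP, 1.26 (SE 1.37) for CI_RFP over CI_BFP and 0.32 (SE 1.26) for UN_RFP over UN_BFP, with edgeR adjusted p of 0.964 to 1. For all 10 genes the group means, put in order, had no neighbouring pair further apart than 1 SD of each, and the highest and lowest means differed from 1.22-fold for fosl2 to 6.18-fold for atf3. A p that misses the threshold does not show that the groups are alike: the SEs of the 10 members ran from 0.679 to 1.54 on the log2 scale in the 4 comparisons of groups.

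A pair of uninjured red libraries departed from the rest within the family. UN_RFP 1 had 7 reads of fosab and 4 of jun, or 1.08 and 0.616 CPM, and none of egr1 or fosl1a, where a count of 0 allows up to 0.462 CPM (3 reads, counting error only). In that tube fosb stood at 159 CPM and fosl2 at 155 CPM, both inside the range of CI_RFP, and the JUNB IDs at 149.9 and 303 CPM, so its low share was not spread evenly over the genes. UN_RFP 5 had no reads of fosb, fosl1a, JUNB ENSDARG00000074378, jund, atf3 or egr1, with a limit of 0.475 CPM. It had 589 CPM of fosab, 688 CPM of jun and the highest fosl2 of all 25 libraries, 393 CPM. UN_RFP 5 also had the fewest genes detected, so many genes besides these were at 0 in it. UN_RFP 6 was the opposite, with the highest fosab, jun and JUNB ENSDARG00000074378 of any library.

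**Figure D4:**
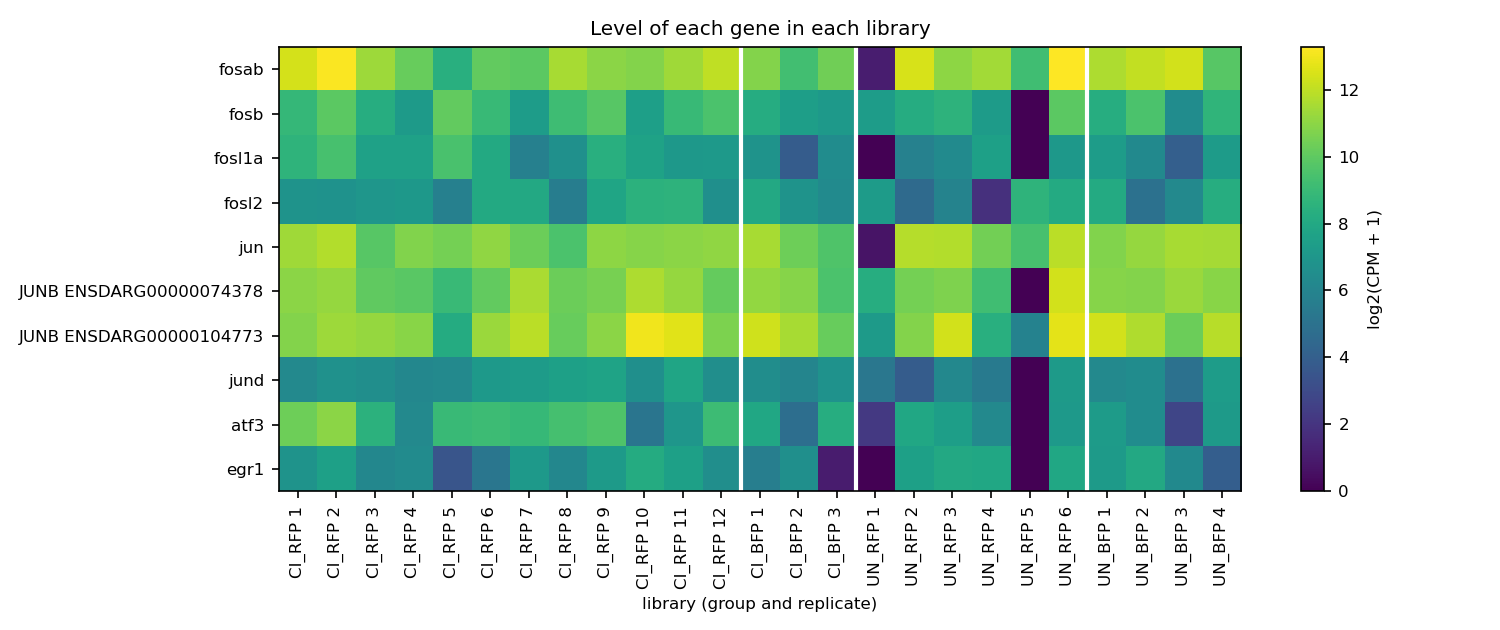
Rows are genes and columns the 25 libraries, divided by white lines into CI_RFP, CI_BFP, UN_RFP and UN_BFP, and colour gives log2(CPM + 1). Dark cells mark fosab and jun in UN_RFP 1 (1.08 and 0.616 CPM) and 6 genes without reads in UN_RFP 5, while JUNB ENSDARG00000104773 is brightest in CI_RFP 10 and fosab in UN_RFP 6 and CI_RFP 2.

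The myosins split the red gate, and the injury comparison was read on each side of that split, as a description of 4 against 4 and 8 against 2 libraries. Where vmhc exceeded myh6, the CPM of 3 members did not overlap between CI_RFP and UN_RFP, beside 6.05% of all genes tested that separated in that direction. They were atf3 at 554 to 1970.1 CPM in CI_RFP against 0 to 237 CPM in UN_RFP, fosb at 464 to 960.0 against 0 to 294 CPM, and jund at 75.1 to 187 against 0 to 41.8 CPM. Both UN_RFP 1 and UN_RFP 5 are among those 4 uninjured libraries. The uninjured highs named come from UN_RFP 2 and UN_RFP 4, so leaving out UN_RFP 1 and UN_RFP 5 could not change them. Leaving them out is for that reason no check of these separations. The share of all genes that separate against UN_RFP 2 and UN_RFP 4 alone was not computed. Where myh6 exceeded vmhc, jun was the 1 member that separated, at 914 to 2118 CPM in 8 CI_RFP libraries against 3446 and 3767 CPM in 2 UN_RFP libraries, beside 2.75% of genes that separated as lower. There atf3 was at 34.8 to 780.5 CPM in CI_RFP against 139 to 171 CPM in UN_RFP and overlapped. Within CI_RFP fosab was at 2939 to 9415 CPM in the 4 libraries with more vmhc and 330.0 to 2630.2 CPM in the 8 with more myh6, 2 ranges that do not meet, as for 2.51% of all genes tested that were higher where vmhc exceeded myh6. As a share of all counts, before TMM scaling, fosab overlapped between these sets. CI_RFP 12, with more vmhc, had 0.192% and CI_RFP 11, with more myh6, had 0.366%. Their TMM factors were 0.465 and 1.39, so the gap in CPM depends on the scaling. In each of these splits, genes without counts in some library of the higher set could not separate. The shares of 6.05%, 2.75% and 2.51% are therefore of unlike genes, and no excess can be read from them. No member's injury response was tested for a difference between the myosin classes.

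**Figure D5:**
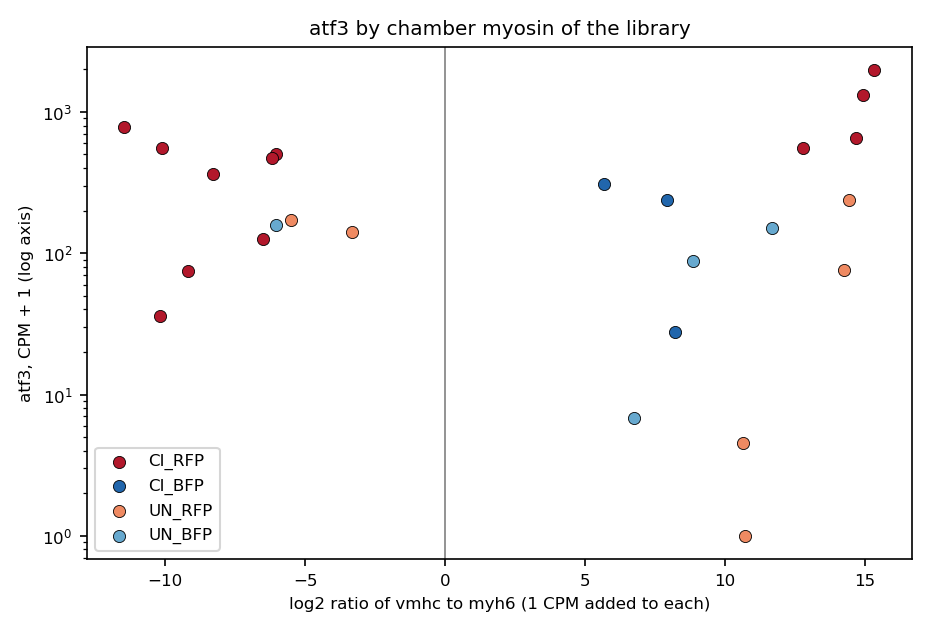
Each point is 1 library, with the log2 ratio of vmhc to myh6 (1 CPM added to each) on the x axis and atf3 in CPM + 1 on a log y axis, coloured by group. On the right, where vmhc exceeds myh6, the 4 CI_RFP libraries lie at 553.6 to 1970.1 CPM, above all 4 UN_RFP libraries at 0 to 237 CPM, and on the left the CI_RFP libraries spread from 34.8 to 780.5 CPM.

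The members did not rise and fall as one block across libraries. Over the 45 pairs of members and 25 libraries the median Spearman rho of CPM was 0.299, from -0.318 for fosab with fosl2 to 0.768 for the JUNB IDs, and 11 pairs exceeded 0.5. Without UN_RFP 1 and UN_RFP 5 the median was 0.204 and 7 pairs exceeded 0.5. Within the 12 CI_RFP libraries JUNB ENSDARG00000074378 with egr1 had the highest rho, 0.860, fosl2 with JUNB ENSDARG00000104773 had 0.846, and fosl2 with atf3 had the lowest, -0.552. These are descriptions over libraries that share depth and cell make-up, with no test.

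Among 9476 tested genes with a count in at least 13 libraries, the 3 whose log2 CPM ranked the 25 libraries most like each member were found by Spearman rho. For atf3 they were AHSA1, ESRRA and BHLHE41 (rho 0.857 to 0.829). AHSA1 is a co-chaperone that activates Hsp90. ESRRA, an orphan nuclear receptor of energy metabolism, was also on the list of fosb, which held nufip2, ESRRA and zgc:92429 (rho 0.755 to 0.730). fosab was nearest to si:dkey-85k15.7, SINHCAF and BCCIP (rho 0.790 to 0.778), fosl1a to mical2b, osgn1 and si:ch211-152f6.6 (rho 0.864 to 0.801), and fosl2 to GSTM3, NID2 and SLC38A5 (rho 0.771 to 0.737). For jun the genes were WDR83OS, zgc:113363 and mycbp (rho 0.891 to 0.733), and for jund ZBTB20, HIVEP2 and SPRYD3 (rho 0.848 to 0.813). JUNB ENSDARG00000104773 was nearest to AXIN1, si:dkey-19b23.8 and ACKR3 (rho 0.915 to 0.882) and JUNB ENSDARG00000074378 to RIMOC1, CHMP2A and DICER1 (rho 0.835 to 0.804). egr1 was nearest to cops8, SERBP1 and POLE4 (rho 0.785 to 0.757). Other members were on none of these lists. The share of the 9476 genes with a rho above 0.5 to a member ran from 2.1% for fosb to 21.5% for JUNB ENSDARG00000104773, whose rho with the number of genes detected was the highest of the members over all 25 libraries, though not without UN_RFP 1 and UN_RFP 5.

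Of the further leucine zipper genes that can join AP-1 or its relatives, 15 of 23 IDs were tested and edgeR called 0 in each comparison. At an unadjusted edgeR p under 0.05 3 of 15 were higher in CI_RFP against UN_RFP, beside 15.8% of all genes tested. There 13 of 15 fold changes were positive with a median of 1.29, beside 69.4% and 0.75 for all genes, and voom and DESeq2 each called 2 as higher, beside 3.53% and 6.52% of all genes. NFE2L1, a stress factor of proteasome genes, was at 43.9 ± 27.8 CPM in CI_RFP, 1.05 ± 1.82 CPM in CI_BFP, 3.77 ± 6.92 CPM in UN_RFP and 2.74 ± 3.60 CPM in UN_BFP, with a count in 12 of 12, 1 of 3, 2 of 6 and 2 of 4 libraries. MAFK, a small Maf protein, was at 26.5 ± 26.1 CPM in CI_RFP, 4.997 ± 3.04 CPM in CI_BFP, 0.775 ± 1.90 CPM in UN_RFP and 17.2 ± 18.8 CPM in UN_BFP. atf5a, a factor of the mitochondrial stress response, had 3.62 ± 6.05 CPM in CI_RFP, 1.46 ± 2.53 CPM in CI_BFP, no count in UN_RFP and 0.0872 ± 0.174 CPM in UN_BFP. JDP2, a repressor that binds Jun, was carried mostly by ENSDARG00000020133, at 658 ± 450.5 CPM in CI_RFP, 428 ± 289 CPM in CI_BFP, 539 ± 869 CPM in UN_RFP and 555 ± 324 CPM in UN_BFP. A further JDP2 ID, ENSDARG00000040137, was at 0.622 ± 0.888 CPM in CI_RFP, 0.0318 ± 0.0550 CPM in CI_BFP, 0.797 ± 1.84 CPM in UN_RFP and 1.42 ± 1.75 CPM in UN_BFP. MAFK had a count in 11 of 12 CI_RFP, 3 of 3 CI_BFP, 1 of 6 UN_RFP and 4 of 4 UN_BFP libraries. Its adjusted p in UN_RFP against UN_BFP was 0.191 by edgeR, 0.0365 by voom and 0.0704 by DESeq2. That of NFE2L1 in CI_RFP against CI_BFP was 0.524 by edgeR, 0.0154 by voom and 0.173 by DESeq2. That of atf5a in CI_RFP against UN_RFP was 0.0912 by edgeR, 0.0817 by voom and 0.0319 by DESeq2.

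Of the other immediate early genes 61 of 73 IDs were tested, and edgeR called 0 in each comparison. For CI_RFP against UN_RFP 53 of 61 fold changes were positive with a median of 0.68, beside 69.4% and 0.75 for all genes. At an unadjusted edgeR p under 0.05, 6 of 61 (9.84%) were higher, beside 15.8% of all genes, and voom called 4 and DESeq2 2, beside 3.53% and 6.52%. In CI_BFP against UN_BFP 26 of 61 were positive with a median of -0.08, beside 49.8% and 0 for all genes. GADD45G (ENSDARG00000019417), a growth arrest gene, was at 298 ± 246 CPM in CI_RFP, 11.4 ± 10.1 CPM in CI_BFP, 204 ± 192 CPM in UN_RFP and 38.4 ± 36.0 CPM in UN_BFP. It was the GADD45G ID of smallest p, and further IDs of that name are not described here. DUSP4, a phosphatase that switches off ERK and JNK, was at 9.90 ± 7.54 CPM in CI_RFP, no count in CI_BFP, 8.98 ± 15.6 CPM in UN_RFP and 13.3 ± 12.2 CPM in UN_BFP. egr4, a relative of egr1, was at 2.34 ± 5.56 CPM in CI_RFP, no count in CI_BFP, 5.98 ± 14.7 CPM in UN_RFP and no count in UN_BFP. HBEGF (ENSDARG00000031246), a growth factor of the EGF family, was at 3.55 ± 9.18 CPM in CI_RFP, 7.09 ± 12.3 CPM in CI_BFP, no count in UN_RFP and 0.484 ± 0.659 CPM in UN_BFP, and its paralog hbegfa at 49.0 ± 31.0 CPM in CI_RFP, 29.2 ± 44.7 CPM in CI_BFP, 32.8 ± 26.9 CPM in UN_RFP and 30.5 ± 13.1 CPM in UN_BFP. DUSP4 had counts in all 4 UN_BFP libraries and in none of the 3 CI_BFP libraries, where edgeR gave an adjusted p of 0.510 and DESeq2 0.00499.

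Heat shock genes are the other class that dissociation is known to induce, and 27 of 28 IDs were tested. edgeR called 0 in each comparison. In CI_RFP against UN_RFP 24 of 27 fold changes were positive with a median of 0.97, beside 69.4% and 0.75 for all genes. At an unadjusted edgeR p under 0.05, 2 of 27 (7.41%) were higher, beside 15.8% of all genes, and voom called 2 and DESeq2 0, beside 3.53% and 6.52%. In CI_RFP against CI_BFP 16 of 27 were positive with a median of 0.27, beside 55.3% and 0.22 for all genes. There 6 of 27 (22.2%) were higher at an unadjusted edgeR p under 0.05 and 0 lower, beside 7.65% and 1.68% of all genes. Voom called 0 and DESeq2 3 as higher, beside 1.01% and 3.27%. In the same comparison cardiomyocyte markers were positive for 13 of 13 IDs tested, 69.2% of them higher at an unadjusted edgeR p under 0.05. Leukocyte markers were positive for 0 of 11. Cell make-up of the gates thus differed there, and its part in the heat shock counts was not tested. In UN_RFP against UN_BFP 7 of 27 heat shock IDs were positive. The summed CPM of the heat shock IDs ran from 21278 to 75856 in CI_RFP, 22149 to 59067 in CI_BFP, 3209 to 44029 in UN_RFP and 21199.5 to 42079.5 in UN_BFP. UN_RFP 5, UN_RFP 1 and UN_RFP 4, at 3209, 8239 and 20392 CPM, lay below every library of the other groups. The remaining UN_RFP libraries overlapped with them. The heat shock transcripts, like the immediate early ones, were thus present without injury. HSPB1, a small heat shock protein of muscle, was at 8065 ± 5601 CPM in CI_RFP, 1199 ± 399 CPM in CI_BFP, 7433 ± 5561 CPM in UN_RFP and 5816 ± 2138 CPM in UN_BFP. hsp90aa1.1, the muscle Hsp90, had medians of 4985 CPM in CI_RFP, 153 CPM in CI_BFP, 452 CPM in UN_RFP and 85.4 CPM in UN_BFP. For CI_RFP against CI_BFP its adjusted p was 0.524 by edgeR, 0.120 by voom and 0.0036 by DESeq2. HSPA8, a constitutive Hsp70, was carried mostly by ENSDARG00000068992, at 4479.9 ± 1929 CPM in CI_RFP, 5624 ± 102 CPM in CI_BFP, 1953 ± 1023 CPM in UN_RFP and 3254 ± 2805 CPM in UN_BFP. A further HSPA8 ID, ENSDARG00000037403, was at 3.12 ± 5.80 CPM in CI_RFP, no count in CI_BFP, no count in UN_RFP and 6.70 ± 13.4 CPM in UN_BFP.

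Upstream of the members, 39 of 42 IDs for MAP kinases, SRF, ELK and CREB factors were tested, and edgeR called 0 in each comparison. Positive fold changes in CI_RFP against UN_RFP numbered 32 of 39 with a median of 1.15, beside 69.4% and 0.75 for all genes. At an unadjusted edgeR p under 0.05, 3 of 39 (7.69%) were higher, beside 15.8% of all genes, and voom and DESeq2 called 1 each, beside 3.53% and 6.52%. mapk11, a p38 kinase, was at 2.27 ± 4.82 CPM in CI_RFP, 52.3 ± 39.0 CPM in CI_BFP, 3.07 ± 6.17 CPM in UN_RFP and 3.52 ± 7.03 CPM in UN_BFP. For CI_RFP against CI_BFP the adjusted p of mapk11 was 0.524 by edgeR, 0.0156 by voom and 0.709 by DESeq2. MAPK12 (ENSDARG00000042021) and mapk13, other p38 kinases, did not exceed a mean of 6.86 CPM and 0.662 CPM in any group and had no count in UN_RFP. SRF (ENSDARG00000053918) was at 3.76 ± 5.61 CPM in CI_RFP, 3.64 ± 3.81 CPM in CI_BFP, 0.424 ± 0.627 CPM in UN_RFP and 0.0872 ± 0.174 CPM in UN_BFP. The repressors of egr1 and AP-1 output, 16 tested with atf3 among them, had 13 of 16 positive fold changes and a median of 0.93 in the same comparison. Of them 3 were higher at an unadjusted edgeR p under 0.05 (18.75%, beside 15.8% of all genes). The member atf3 is among these 3, so this share restates its result in part and is not separate from it. For this list edgeR called 0 in each comparison, and voom and DESeq2 called 1 each in CI_RFP against UN_RFP, beside 3.53% and 6.52%. NAB1 (ENSDARG00000040700), a repressor that binds Egr1, was at 3.04 ± 5.69 CPM in CI_RFP, 0.599 ± 0.613 CPM in CI_BFP, no count in UN_RFP and 6.41 ± 9.83 CPM in UN_BFP. Its adjusted p in CI_RFP against UN_RFP was 0.0912 by edgeR, 0.0629 by voom and 0.0051 by DESeq2. In UN_RFP against UN_BFP it was 0.115, 0.421 and 0.0118 in that order, and in the interaction 0.297, 0.682 and 0.0420. A further NAB1 ID (ENSDARG00000042940) was at 2.78 ± 6.75 CPM in CI_RFP, 3.40 ± 5.89 CPM in CI_BFP, no count in UN_RFP and no count in UN_BFP.

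Of genes that textbooks list as AP-1 targets 31 of 38 IDs were tested, and edgeR called 0 in each comparison. In CI_RFP against UN_RFP 27 of 31 fold changes were positive with a median of 1.78, beside 69.4% and 0.75 for all genes. At an unadjusted edgeR p under 0.05, 9 of 31 (29.0%) were higher, beside 15.8% of all genes, and voom called 4 and DESeq2 5, beside 3.53% and 6.52%. Summed, the target IDs stood at 1025 to 3016 CPM in CI_RFP and 81.8 to 4037 CPM in UN_RFP where vmhc exceeded myh6. Where myh6 exceeded vmhc they stood at 1619 to 15745 CPM in CI_RFP and at 7293 and 8452 CPM in UN_RFP. The sums thus overlapped on each side, and vmhc exceeded myh6 in 4 of 12 CI_RFP and 4 of 6 UN_RFP libraries. The part of this split in the rise was not tested. In UN_RFP against UN_BFP 4 of 31 were positive with a median of -1.56, beside 38.8% and -0.43 for all genes. Of these 7 of 31 (22.6%) were lower at an unadjusted edgeR p under 0.05, beside 11.2% of all genes, and voom and DESeq2 called 2 each as lower, beside 1.27% and 3.88%. PTGS2 (ENSDARG00000010276), a cyclooxygenase of prostaglandin synthesis, had counts in 7 of 12 CI_RFP, 3 of 3 CI_BFP, 1 of 6 UN_RFP and 4 of 4 UN_BFP libraries. It was at 18.8 ± 33.0 CPM in CI_RFP, 21.9 ± 11.9 CPM in CI_BFP, 0.0373 ± 0.0914 CPM in UN_RFP and 99.3 ± 124 CPM in UN_BFP. In UN_RFP against UN_BFP its edgeR log2 fold change was -10.7, with an adjusted p of 0.0764 by edgeR, 0.00298 by voom and 9.47e-06 by DESeq2. In CI_RFP against UN_RFP the log2 fold change was 8.33, with an adjusted p of 0.0796 by edgeR, 0.0457 by voom and 2.12e-05 by DESeq2. The UN_RFP mean lay below 0.0589 CPM, the level of 3 reads over that group. The size of both fold changes therefore rests on a group near 0 and is not well measured. The other PTGS2 ID, ENSDARG00000004539, was at 166 ± 205 CPM in CI_RFP, 476 ± 198 CPM in CI_BFP, 116 ± 284 CPM in UN_RFP and 408 ± 418 CPM in UN_BFP. f3a, tissue factor of the clotting cascade, was at 46.8 ± 68.8 CPM in CI_RFP, 0.445 ± 0.770 CPM in CI_BFP, 0.153 ± 0.376 CPM in UN_RFP and 8.60 ± 9.97 CPM in UN_BFP, and its paralog f3b at 779 ± 357 CPM in CI_RFP, 204 ± 153 CPM in CI_BFP, 458 ± 475 CPM in UN_RFP and 213 ± 223 CPM in UN_BFP. The interaction of f3a had an adjusted p of 0.253 by edgeR, 0.369 by voom and 0.00363 by DESeq2. il11b, an interleukin 11 of zebrafish, was at 6.64 ± 12.4 CPM in CI_RFP, no count in CI_BFP, no count in UN_RFP and 0.959 ± 1.92 CPM in UN_BFP. The fibroblast and epicardial markers were higher in CI_RFP than in UN_RFP for 14 of 14 IDs with a median of 3.66, and in UN_RFP lower than in UN_BFP for 14 of 14 with a median of -2.32, and their part in the levels of the target genes was not tested.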

How the data were processed

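The authors deposited raw read counts per Ensembl gene for 25 libraries, as whole numbers that were not normalised. Per the submitters' processing notes, FastQC 0.11.5, HISAT2 2.1.0 and featureCounts 1.6.0 were used with the GRCz11 build. The deposited files carry a naming usual for another aligner, so which tool made the counts is not settled. No source used here gives the settings, the annotation release or a strand option, so reads of overlapping antisense genes cannot be told apart. A name table covered 91.5% of the 31901 gene IDs, and where it drops the paralog letter every ID of that name was taken. Genes were kept by filterByExpr (14853) and scaled by TMM. All 25 libraries entered 1 fit of 4 group means by the two-sided quasi-likelihood test of edgeR 4.0.16 (R 4.3.3, robust), with Benjamini-Hochberg adjustment over all genes tested and a threshold of 0.05. The SE is the size of the log2 fold change over the square root of F and restates the p. DESeq2 1.42.0, limma 3.58.1 (voom), RLE scaling, other filters, libraries left out and a covariate for the vmhc to myh6 ratio (1 CPM added to each) were alternatives. Procedures were tested on simulated counts, with changes larger than any that edgeR fitted for the members. That test therefore does not show whether changes of the members' size would be found. Replicates are numbered in order of deposition. The labels share 1 sequencing run name, so no batch was defined. No library duplicated another: the correlation of log2(CPM + 1) between libraries was at most 0.844. Total counts were 5644279 to 11981012, and a count of 0 was given a limit of 3 reads, which covers counting error only. The members, lists and covariate were chosen with earlier results of these data known. Named beside the members are, per further list and comparison, the gene with the smallest edgeR p (up to 4 where any pass), and the 3 genes most like each member.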

Additional observations from a re-analysis of the deposited data

Results flagged for a closer look

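Of 20 sets of CPM values tested (10 genes in UN_RFP and in UN_BFP, the groups of 4 to 10 libraries), 1 held a library far from the others. JUNB ENSDARG00000074378 stood at 5203 CPM in UN_RFP 6, and the next highest UN_RFP library had 1668 CPM. The gap was 0.679 of the range of the 6 libraries, above Dixon's critical value of 0.625. Among independent sets of normally distributed values chance flags about 1 set in 20. Here the 20 sets share libraries, and the CPM were not on a log scale. The SD of this ID in UN_RFP was above its mean (1536 ± 1909.8 CPM), so that rate need not hold. In that library fosab was at 9889 CPM and jun at 3767 CPM, also the highest of the group. No interaction of gate and injury passed for any of the 10 genes.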

How the results depend on the processing

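Whether a member passed did not depend on the settings run: 0 of 10 passed in each of the 5 comparisons under the reported fit and all 34 other settings, 1700 recomputed values, with a lowest adjusted p of 0.0504 (atf3 in CI_RFP against UN_RFP by DESeq2). Of the 50 log2 fold changes 23 kept their direction in every setting and 27 turned in at least 1. No paired analysis was possible because the labels give no replicate numbers that groups share: libraries are numbered in order of deposition. Groups of 3 and 4 libraries, tubes of 20 cells and reads without molecular identifiers limit what depth can resolve. In addition, 2 of the 6 UN_RFP libraries hold few or no reads of several members. Weighted voom and the fit without UN_RFP 1 and UN_RFP 5 were chosen after seeing the data.

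Over all genes edgeR called 0, 0, 4, 0 and 0 in the order CI_RFP against CI_BFP, UN_RFP against UN_BFP, CI_RFP against UN_RFP, CI_BFP against UN_BFP and the interaction. In the same order DESeq2 called 444, 806, 861, 471 and 704, voom 254, 198, 525, 18 and 3, and weighted voom 839, 182, 1038, 53 and 12. edgeR without a filter on low counts called 293 in CI_RFP against CI_BFP, 27 in UN_RFP against UN_BFP, 513 in CI_RFP against UN_RFP and 2 in the interaction, with RLE scaling 1 in CI_RFP against CI_BFP, and with a mean of at least 10 counts 23 in CI_RFP against UN_RFP. With the vmhc to myh6 ratio as covariate it called 139 in CI_RFP against CI_BFP and 148 in UN_RFP against UN_BFP. It called 0 in CI_RFP against UN_RFP both without the 3 libraries with fewest detected genes and without UN_RFP 1 and UN_RFP 5. With 1 library left out at a time it called 0 to 9 in CI_RFP against CI_BFP, 0 to 170 in UN_RFP against UN_BFP, 0 to 160 in CI_RFP against UN_RFP, 0 to 0 in CI_BFP against UN_BFP and 0 to 1 in the interaction, and the highest counts of the red comparisons, 170 and 160, came without UN_RFP 6, while 0 in CI_RFP against UN_RFP came without UN_RFP 5. The cause of these differences was not tested.

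The log2 fold changes that turned are given with their values, and none passed the threshold in either direction. DESeq2 turned the sign in CI_RFP against CI_BFP for fosl2 to -0.16, jun to -0.53 and JUNB ENSDARG00000074378 to -0.54, and in UN_RFP against UN_BFP for fosab to -0.27, fosl2 to 0.15, atf3 to -0.37 and egr1 to -0.12, and in CI_RFP against UN_RFP for fosl2 to -0.0639, and in CI_BFP against UN_BFP for fosl2 to 0.25, JUNB ENSDARG00000104773 to 0.32, JUNB ENSDARG00000074378 to 0.17 and jund to 0.49, and in the interaction for fosl2 to -0.31 and jun to -0.0108. RLE scaling turned the sign in CI_RFP against CI_BFP for fosl2 to -0.16, jun to -0.53 and JUNB ENSDARG00000074378 to -0.54, and in UN_RFP against UN_BFP for fosab to -0.27, fosl2 to 0.15, atf3 to -0.37 and egr1 to -0.12, and in CI_RFP against UN_RFP for fosl2 to -0.0639, and in CI_BFP against UN_BFP for fosl2 to 0.25, JUNB ENSDARG00000104773 to 0.32, JUNB ENSDARG00000074378 to 0.17 and jund to 0.49, and in the interaction for fosl2 to -0.31 and jun to -0.0107. Limma voom turned the sign in CI_RFP against CI_BFP for JUNB ENSDARG00000074378 to -0.0225, and in UN_RFP against UN_BFP for fosab to -1.76, atf3 to -1.21 and egr1 to -2.17, and in CI_RFP against UN_RFP for fosab to 1.16, jun to 1.45 and egr1 to 2.25, and in CI_BFP against UN_BFP for fosl2 to 0.18 and jund to 0.23. Voom with library weights turned the sign in CI_RFP against CI_BFP for JUNB ENSDARG00000104773 to 0.17, and in UN_RFP against UN_BFP for fosab to -1.33, atf3 to -0.39 and egr1 to -1.08, and in CI_RFP against UN_RFP for fosab to 0.98, jun to 1.11 and egr1 to 1.27, and in CI_BFP against UN_BFP for fosl2 to 0.0604 and jund to 0.24. Leaving out the 3 libraries with fewest detected genes turned the sign in CI_RFP against CI_BFP for JUNB ENSDARG00000104773 to 0.0261, and in UN_RFP against UN_BFP for fosb to 0.23, fosl1a to 0.18, jun to 0.30, JUNB ENSDARG00000104773 to 0.0891 and JUNB ENSDARG00000074378 to 0.15, and in CI_RFP against UN_RFP for JUNB ENSDARG00000104773 to -0.19 and JUNB ENSDARG00000074378 to -0.31, and in the interaction for jun to -0.13 and JUNB ENSDARG00000104773 to -0.0630. Leaving out UN_RFP 1 and UN_RFP 5 turned the sign in UN_RFP against UN_BFP for fosb to 0.23, fosl1a to 0.18, jun to 0.30, JUNB ENSDARG00000104773 to 0.0898 and JUNB ENSDARG00000074378 to 0.15, and in CI_RFP against UN_RFP for JUNB ENSDARG00000104773 to -0.31 and JUNB ENSDARG00000074378 to -0.40, and in the interaction for jun to -0.16, JUNB ENSDARG00000104773 to -0.18 and JUNB ENSDARG00000074378 to -0.0804. The vmhc to myh6 ratio as covariate turned the sign in CI_RFP against CI_BFP for fosl2 to -0.27 and JUNB ENSDARG00000074378 to -0.11, and in CI_RFP against UN_RFP for fosl2 to -0.23, and in CI_BFP against UN_BFP for JUNB ENSDARG00000104773 to 0.0518, and in the interaction for fosl2 to -0.16.

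Leaving out each library in turn turned 19 log2 fold changes at least once, given with their lowest and highest values over the 25 repeats. In CI_RFP against CI_BFP this was fosl2 (-0.0434 to 0.85), jun (-0.23 to 0.74), JUNB ENSDARG00000104773 (-0.51 to 0.40) and JUNB ENSDARG00000074378 (-0.31 to 0.32). In UN_RFP against UN_BFP this was fosab (-0.61 to 0.33), fosb (-0.95 to 0.29), fosl2 (-0.72 to 0.31), jun (-0.44 to 0.0581), atf3 (-0.36 to 0.37) and egr1 (-0.0501 to 0.94). In CI_RFP against UN_RFP this was fosab (-0.62 to 0.36), fosl2 (-0.34 to 0.80), jun (-0.47 to 0.0331) and JUNB ENSDARG00000074378 (-0.12 to 1.07). In CI_BFP against UN_BFP this was fosl2 (-0.81 to 0.23), JUNB ENSDARG00000104773 (-0.67 to 0.24), JUNB ENSDARG00000074378 (-0.61 to 0.0165) and jund (-0.29 to 0.46). In the interaction this was fosl2 (-0.0168 to 1.00).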

Other observations

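Among the 8 members not described above in this way, the Spearman rho of CPM with the number of genes detected over the 25 libraries, and without UN_RFP 1 and UN_RFP 5, was as follows for jund (0.54 and 0.43), fosl1a (0.45 and 0.32), JUNB ENSDARG00000074378 (0.46 and 0.31), jun (0.28 and 0.08), atf3 (0.24 and 0.05), egr1 (0.18 and -0.05), fosb (0.17 and -0.01) and fosab (0.09 and -0.16). With the summed heat shock list it was as follows for jun (0.53 and 0.39), fosb (0.52 and 0.41), fosab (0.38 and 0.21), fosl1a (0.37 and 0.19), jund (0.30 and 0.12), JUNB ENSDARG00000074378 (0.28 and 0.07), JUNB ENSDARG00000104773 (0.24 and 0.02), egr1 (0.11 and -0.15) and fosl2 (-0.13 and 0.02), beside 0.67 and 0.58 for atf3. The blue gate of cryoinjured hearts had 1 of 3 libraries below every UN_BFP library for fosab, fosl1a, both JUNB IDs and egr1, and 2 of 3 for jun, so 6 of 10 had at least 1 library below, beside 14.1% of all genes tested. Genes without counts in some UN_BFP library are among those tested and could not meet this. All members had counts in every UN_BFP library, so these shares are of unlike genes and no excess can be read from them. These values are descriptions over libraries that share depth and cell make-up, with no test.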
